A study of Mus musculus with 12 samples.

Results

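A group of 46 genes that act in the G2 phase and in mitosis was read across 12 RNA sequencing libraries of cells sorted from infarcted mouse hearts. Its members were taken by gene symbol from a list of names, itself drawn up with earlier results of these data known, out of 17952 genes listed in the tables. All 46 were found. They are listed for every library except P16hi library 1 of the PDGFRα-high cells, where 42 are listed and Cdc25c, Aurkb, Bub1 and Anln are absent and were set at 0.

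All mice carried the p16-2A-CreER and R26-mTmG alleles, had a myocardial infarction, and received tamoxifen by gavage on day 5 after it. Cells of the infarct zone other than cardiomyocytes were collected on day 7 and sorted by PDGFRα, a surface receptor of fibroblasts, or by F4/80, a macrophage surface protein encoded by Adgre1. Each sort was divided by green fluorescence. The Cre enzyme is made from the p16 locus (Cdkn2a) and switches the reporter from red to green in cells where that locus was active when tamoxifen was present, so P16hi is a sort on that history and P16lo cells carry the same alleles and treatment. The 4 groups, of 3 libraries each, were the P16lo and the P16hi cells of the PDGFRα-high sort and those of the F480-high sort. The labels do not say whether the libraries of a group came from separate animals or pools, and p-values therefore measure the spread between the libraries at hand, which may be technical.

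A dividing cell enters mitosis when Cdk1 binds cyclin A2 or a B-type cyclin. Wee1 and Pkmyt1 hold this complex back by phosphorylating Cdk1, and Cdc25 phosphatases release it. Polo-like and Aurora kinases then drive spindle assembly, the checkpoint holds the anaphase promoting complex until every kinetochore is attached, and Cdc20 and Ube2c serve that complex at anaphase. Most of these genes are transcribed in G2 and mitosis and are silent in resting cells, through the DREAM, B-Myb and FoxM1 regulators. The p16 protein inhibits Cdk4 and Cdk6 and so acts before S phase, upstream of this group. Macrophages and fibroblasts both divide in a healing infarct.

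Many promoters of the group hold short elements, among them the CHR (TTTGAA or TTTAAA) and the CCAAT box. The 120 bases before the start of transcription are shown for 8 members, to show how these elements lie in the genes whose values follow. Capitals mark the CHR and the CCAAT box on either strand, so that TTCAAA and ATTGG are their reverse complements. The sequences are from RefSeq (GRCm38.p6), written 5′ to 3′ along the gene.
Cdk1: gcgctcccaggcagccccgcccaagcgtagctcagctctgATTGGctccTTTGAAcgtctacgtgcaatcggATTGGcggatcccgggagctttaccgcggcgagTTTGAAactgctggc
Ccnb1: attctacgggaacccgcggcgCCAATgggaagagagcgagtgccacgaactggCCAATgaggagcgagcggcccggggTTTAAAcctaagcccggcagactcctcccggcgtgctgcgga
Ccnb2: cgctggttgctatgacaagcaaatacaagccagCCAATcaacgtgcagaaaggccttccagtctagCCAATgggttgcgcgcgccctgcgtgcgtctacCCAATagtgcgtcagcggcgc
Plk1: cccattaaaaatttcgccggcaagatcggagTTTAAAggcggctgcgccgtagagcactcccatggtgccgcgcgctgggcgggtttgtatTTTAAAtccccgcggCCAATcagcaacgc
Cdc20: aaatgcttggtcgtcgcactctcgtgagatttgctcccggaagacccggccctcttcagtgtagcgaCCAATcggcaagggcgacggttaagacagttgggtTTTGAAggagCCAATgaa
Top2a: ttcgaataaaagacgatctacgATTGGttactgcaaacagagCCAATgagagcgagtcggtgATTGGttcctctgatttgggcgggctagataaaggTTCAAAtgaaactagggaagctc
Cenpa: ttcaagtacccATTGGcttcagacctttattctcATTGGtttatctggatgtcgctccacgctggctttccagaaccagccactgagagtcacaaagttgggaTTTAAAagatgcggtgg
Hmgb2: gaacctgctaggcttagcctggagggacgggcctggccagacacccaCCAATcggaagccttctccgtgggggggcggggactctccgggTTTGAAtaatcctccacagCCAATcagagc

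The windows on the minus strand were chr10:69352913-69353032 for Cdk1, chr13:100786487-100786606 for Ccnb1, chr9:70421555-70421674 for Ccnb2, chr4:118437344-118437463 for Cdc20, chr11:99024190-99024309 for Top2a. Those on the plus strand were chr7:122159315-122159434 for Plk1, chr5:30666766-30666885 for Cenpa, chr8:57511723-57511842 for Hmgb2. Cdk1 and Plk1 hold a pair of CHR words each, and Ccnb2 holds 3 CCAAT boxes and no CHR word in this window. RefSeq promoters were matched for 35 of the 46 members. Within 250 bases upstream a CHR word was present in 18 of 35 (51.4%), against 22.8% of 14163 listed genes with a promoter, and a CCAAT box in 26 of 35 (74.3%) against 39.8%. Both were present in 16 of 35 (45.7%) against 8.69%, among them Cdk1, Ccnb1, Plk1, Cdc20, Top2a, Cenpa, Hmgb2, Mki67, Kif11 and Ube2c. An E2F word (TTCCCGC or TTGGCGC) was present in 4 of 35 (11.4%) against 9.98%. All words were searched on both strands and separately, so they may share bases. A match is a description of letters, not of binding.

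The libraries held 3.16 to 27.9 M counts (M stands for 1000000). Many did not match their sort by marker genes. In PDGFRα-high P16lo library 1, Pdgfra stood at 4.65 CPM (counts per 1000000 after TMM scaling) and Adgre1 at 772 CPM, and the summed level of 12 macrophage markers was 27464 CPM against 1123 CPM for 12 fibroblast markers. The macrophage sum was also above the fibroblast sum in P16lo library 2 (6149 against 4091 CPM), P16hi library 1 (16843 against 5103 CPM) and P16hi library 2 (12750 against 2501 CPM). It was below it in P16lo library 3 (1738 against 29241 CPM) and P16hi library 3 (5710 against 9312 CPM). Across all PDGFRα-high libraries Pdgfra ran from 4.65 to 165 CPM and Adgre1 from 28.7 to 772 CPM. In F480-high P16lo library 3 the macrophage markers summed to 2315 CPM, against 14436 to 50639 CPM in the other F480-high libraries, and 7 B cell markers summed to 6873 CPM. PDGFRα-high P16lo library 2 and F480-high P16hi library 3 also stood apart, the latter with 10 endothelial markers at 3800 CPM. Cdkn2a, the reporter's gene, had 2, 2 and 3 counts in P16lo and 6, 5 and 8 in P16hi libraries of PDGFRα-high cells, and 4, 5 and 3 against 13, 26 and 14 in F480-high cells.

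Per gene length, Pttg1, which encodes the anaphase inhibitor securin, had the highest level of the group in either population, with a mean of 211 FPKM in PDGFRα-high and 120 FPKM in F480-high cells. Ube2c (53.2 FPKM) and Hmgb2 (47.9 FPKM) followed in PDGFRα-high cells, but without P16lo library 2 their means were 25.3 and 26.5 FPKM, in the opposite order. In F480-high cells Cenpa (55.9 FPKM) and Hmgb2 (54.8 FPKM) followed. Ttk, a checkpoint kinase, was lowest in both, at 0.700 and 0.287 FPKM. The members made up 0.0419% to 0.237% of all counts of a library. In bulk libraries fewer dividing cells and less RNA per cell cannot be told apart.

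**Figure D1:**
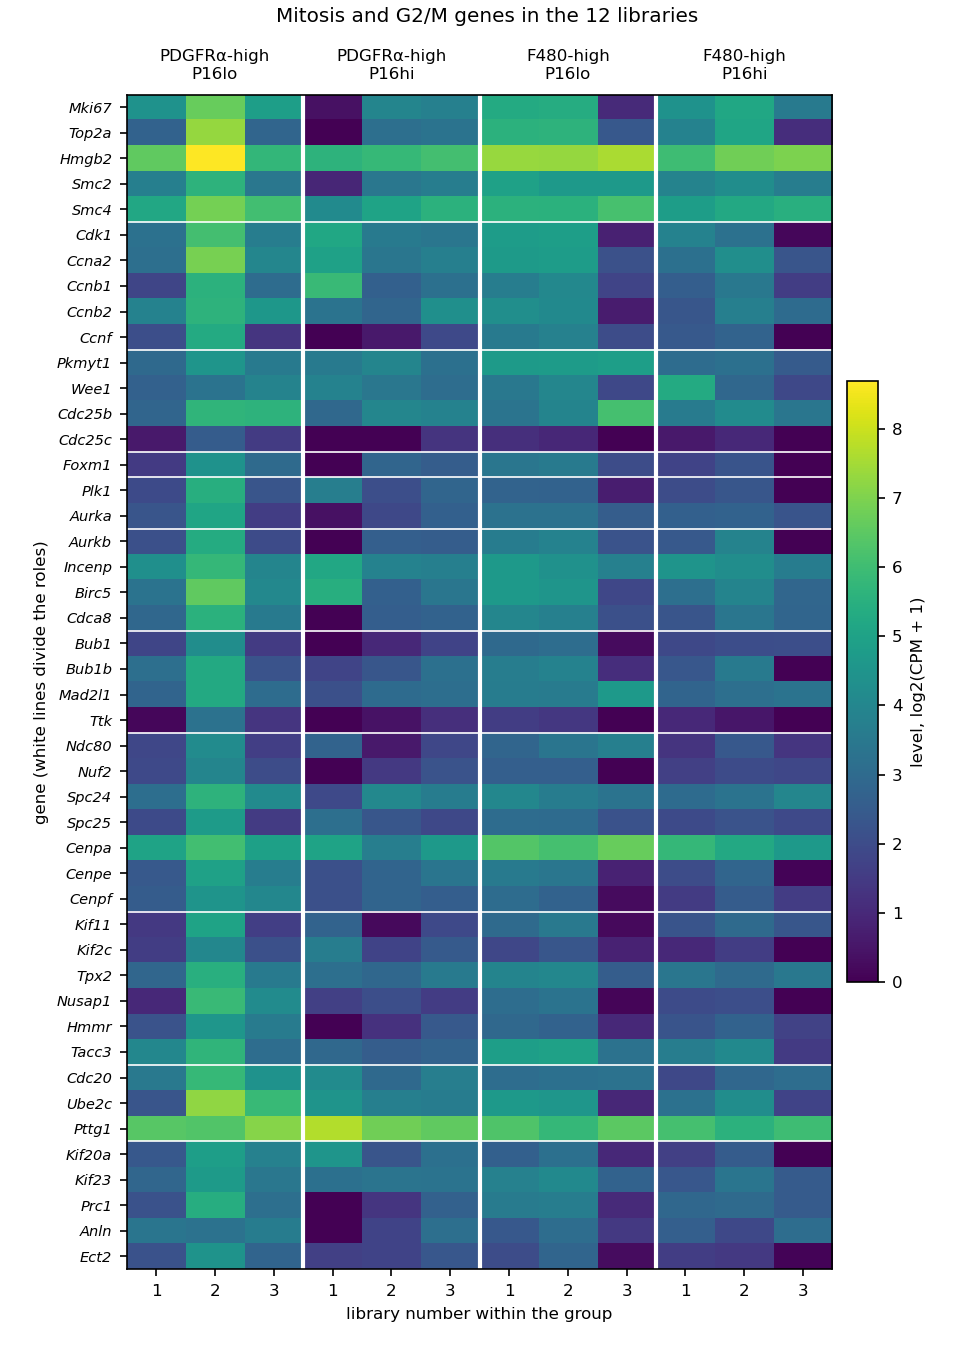
Level of the 46 genes as log2(CPM + 1) (colour) in the 12 libraries (columns, by group and library number), with genes in rows and white lines between roles. PDGFRα-high P16lo library 2 is bright for nearly all genes, and F480-high P16lo library 3 is dark for Mki67, Cdk1 and Kif11 but not for Hmgb2, Cenpa and Pkmyt1.

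In PDGFRα-high cells the group was lower on average in P16hi than in P16lo cells, with no gene past the test. The median level over the 46 members was 5.58, 40.1 and 10.7 CPM in P16lo libraries 1 to 3 and 5.81, 5.66 and 8.06 CPM in P16hi libraries 1 to 3. P16lo library 2 stood far above all others, and P16lo libraries 1 and 3 lay on either side of the P16hi libraries. It held the highest level of 42 of the 46 members. The median log2 fold change (P16hi against P16lo) of the members was -1.46, beside -0.17 for all 13262 genes tested, and 43 of 46 members lay below 0 (93.5%), where 59.6% of all genes did. Without P16lo library 2 the median was -0.33 and 30 of 46 lay below 0, and without P16lo library 1 the median was -1.90 and 45 lay below 0.

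edgeR's quasi-likelihood test called 0 of 46 members, and 0 of all genes (percent called 0), at an adjusted p under 0.05. At an unadjusted p under 0.05 it found 2 members, Tacc3 and Nusap1, both lower in P16hi, and 6.48% of all genes (1.67% lower in P16hi). DESeq2 called 304 genes (2.29%), of which 293 were higher and 11 lower in P16hi, and 0 members. Its unadjusted p was under 0.05 for 11 of 46 members, beside 1265 of 13262 genes. DESeq2 gave no adjusted p for some members, among them Top2a and Aurkb. The groups did not overlap, with P16hi lower, for 4 of 46 members (8.70%), Mki67, Cdca8, Tacc3 and Anln, beside 6.92% of all genes, so that count was near the background. It depended on the scaling. With library totals in place of TMM it was 1 member, Mki67 (2.17%), beside 0.543% of all genes. No member was higher in all P16hi libraries, where 7.92% of all genes were.

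**Figure D2:**
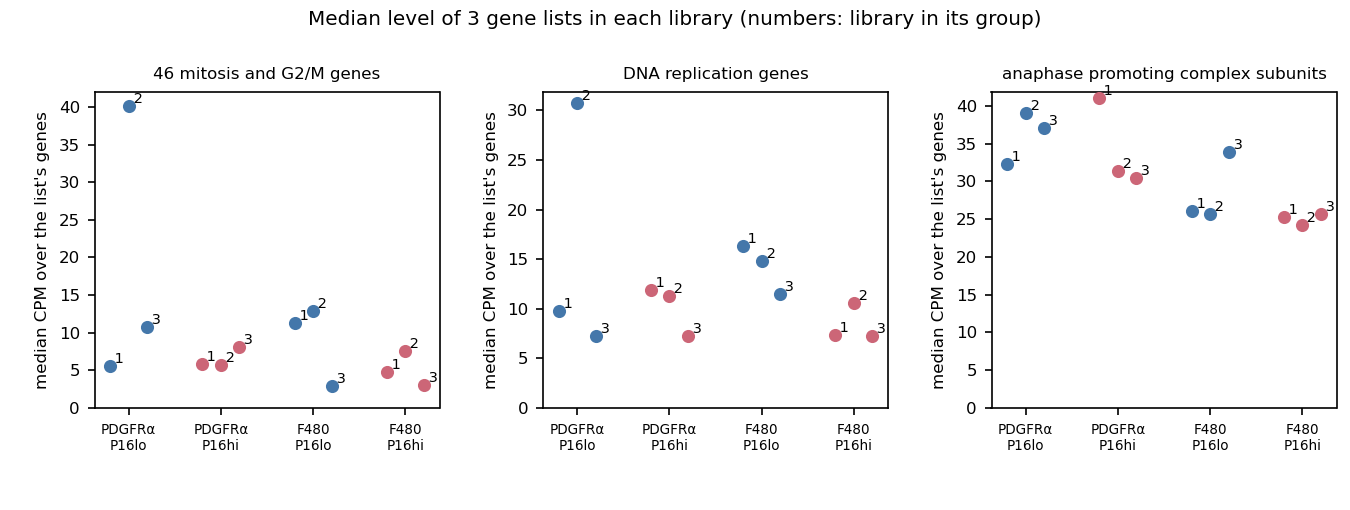
Median CPM (vertical axis, linear) over 3 gene lists in each library (points, numbered within their group; blue P16lo, red P16hi). The members and the DNA replication genes share the high P16lo library 2 of PDGFRα-high cells, at 40.1 and 30.7 CPM, while the anaphase promoting complex subunits lie between 24.2 and 41.0 CPM in all libraries.

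Other cell types moved with this comparison. All 12 cardiomyocyte markers were higher in every P16hi than in every P16lo PDGFRα-high library, with summed levels of 2760 to 9621 CPM against 292 to 393 CPM, and all 10 endothelial markers had a positive fold change, with sums of 1815 to 3196 against 420 to 832 CPM. P16lo library 2, the library highest for the mitotic genes, was also highest for 10 monocyte markers (5868 CPM, others 438 to 1180), 13 T and NK cell markers (1834 CPM, others 29.5 to 284), 7 B cell markers (1114 CPM, others 51.1 to 372) and 12 neutrophil markers (2183 CPM, others 61.3 to 232). Its 11 erythroid markers summed to 200021 CPM, below P16lo library 3 (669270 CPM). All 10 monocyte, 13 T and NK, 7 B cell and 9 tested erythroid markers had a negative fold change, as did 12 of 12 fibroblast markers (1123 to 29241 CPM in P16lo, 2501 to 9312 CPM in P16hi libraries). No cardiomyocyte, endothelial or fibroblast marker was at 0 in these libraries. In P16lo library 2 only the neutrophil genes Elane and Mpo were at 0 among all marker lists, and those at 0 in P16hi library 1 included Cd3d, Cd8a, Klrb1c, Ncr1, Lck, Pax5, F10, Ly6g and Clec9a. The part of these cells in the mitotic gene levels was not tested.

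Among genes of chromosome structure, Mki67, the proliferation marker that coats mitotic chromosomes, was at 20.3, 101 and 28.1 CPM across P16lo and at 0.306, 14.5 and 12.7 CPM across P16hi PDGFRα-high libraries. Its groups did not overlap, and its log2 fold change was -2.40 (SE 1.08, edgeR adjusted p = 0.798). Top2a, the topoisomerase that untangles sister chromatids, was at 5.63, 157 and 6.14 CPM against 0, 7.93 and 8.79 CPM. P16lo library 2 alone was high, and 2 P16hi libraries exceeded the other P16lo libraries. Hmgb2, a chromatin protein, was at 94.2, 410 and 52.9 CPM against 48.0, 55.0 and 67.0 CPM. The condensin subunits Smc2 (12.5, 47.5 and 9.87 CPM against 0.918, 9.79 and 11.9 CPM) and Smc4 (35.6, 117 and 65.8 CPM against 16.8, 31.6 and 46.8 CPM) had overlapping groups. The log2 fold changes of Hmgb2, Smc2 and Smc4 were -1.71 (SE 0.74), -1.60 (SE 0.96) and -1.19 (SE 0.54).

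P16hi library 1, the shallowest at 3.16 M counts, split the group. Cdk1, the kinase of mitotic entry, was at 8.36, 67.1 and 11.7 CPM across P16lo and at 35.2, 10.6 and 9.64 CPM across P16hi libraries. Ccnb1, its cyclin, was at 2.53, 46.3 and 7.45 CPM against 57.5, 5.40 and 8.33 CPM. P16hi library 1 thus held the highest Ccnb1 of the 6 libraries, while Ccnf, another cyclin, was at 3.20, 38.3 and 1.53 CPM against 0, 0.506 and 2.78 CPM. The survivin gene Birc5, of the chromosomal passenger complex, was likewise high there, at 42.8 CPM, beside 5.40 and 9.64 CPM in the other P16hi and 8.98, 92.9 and 15.5 CPM in the P16lo libraries. Its partner Aurkb, the kinase of that complex, is not listed for that library, and was at 5.23 and 4.94 CPM in the other P16hi and 3.30, 39.2 and 2.96 CPM in the P16lo libraries. In all, 12 members were at 0 in P16hi library 1. Top2a, Ccnf, Foxm1, Cdca8, Ttk, Nuf2, Hmmr and Prc1 had a listed count of 0, while Cdc25c, Aurkb, Bub1 and Anln were not listed and set at 0. A listed count of 0 there allows up to 0.918 CPM (3 counts, counting error only). Without this library the member median was -1.57 with 45 of 46 below 0, Ccnb1 had a log2 fold change of -1.46, and all 5 remaining libraries came from the same column block of the table.

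P16lo library 2 was also the highest for Pkmyt1, Foxm1 and Plk1, but not for Wee1. Pkmyt1 was at 6.76, 21.9 and 10.6 CPM across P16lo and at 11.02, 14.3 and 8.18 CPM across P16hi PDGFRα-high libraries, with a log2 fold change of -0.23 (SE 0.60). Its sister kinase Wee1 was at 5.52, 8.86 and 13.9 CPM against 13.5, 9.96 and 7.64 CPM. Both had fully interleaved groups and changed sign under other settings. Foxm1, the forkhead factor of G2/M transcription, was at 1.81, 20.6 and 7.02 CPM against 0, 6.08 and 4.86 CPM. Plk1, the polo-like kinase, was at 2.84, 42.1 and 3.95 CPM against 12.2, 3.21 and 6.17 CPM. P16hi library 1 was above both P16lo libraries 1 and 3 for Plk1 and at 0 for Foxm1.

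Kinetochore, checkpoint and spindle genes repeated the picture. The checkpoint kinase gene Bub1b was at 8.003, 37.7 and 3.62 CPM across P16lo and at 2.45, 4.05 and 8.33 CPM across P16hi libraries. Ndc80, the outer kinetochore subunit that holds microtubules, was at 2.63, 17.2 and 2.08 CPM against 5.81, 0.506 and 2.62 CPM, and Cenpa, the centromeric histone H3 variant, at 31.7, 65.9 and 29.7 CPM against 31.5, 12.2 and 24.6 CPM. Each group pair overlapped. Cenpf, a kinetochore protein of G2 and mitosis, was at 4.80, 21.4 and 15.1 CPM against 3.37, 5.91 and 5.09 CPM. The spindle motor Kif11 was at 1.70, 31.5 and 2.08 CPM against 5.81, 0.169 and 2.78 CPM. P16lo library 1 was within the P16hi range for Cenpf and Kif11.

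The smallest p-values of the group belonged to spindle proteins. Tacc3, which stabilises kinetochore fibres, was at 15.2, 50.9 and 7.67 CPM across P16lo and at 6.73, 4.90 and 5.79 CPM across P16hi libraries. Its groups did not overlap, with a log2 fold change of -2.08 (SE 0.74, unadjusted p = 0.0255, edgeR adjusted p = 0.660). Nusap1, a microtubule bundling protein, was at 0.981, 57.8 and 17.1 CPM against 2.14, 3.21 and 1.93 CPM, so P16lo library 1 was below every P16hi library, and its log2 fold change was -3.38 (SE 1.25, unadjusted p = 0.0291, edgeR adjusted p = 0.685). At anaphase and exit, Cdc20 was at 10.48, 55.4 and 20.3 CPM against 17.4, 6.75 and 12.1 CPM and Ube2c at 3.87, 150 and 56.9 CPM against 21.4, 12.5 and 11.5 CPM. P16lo library 1 was again within or below the P16hi range for both. Anln, a scaffold of the cleavage furrow, was at 9.40, 8.59 and 11.6 CPM against 0 (not listed, set at 0), 2.36 and 7.95 CPM. With Wee1 it was highest in P16lo library 3 rather than in library 2, and its groups did not overlap. Pttg1, with a log2 fold change of 0.43 (SE 0.41), was among the 3 members above 0, with Ccnb1 and Wee1.

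In F480-high cells the members were also lower on average in P16hi, and again no gene passed edgeR's test. The median member level was 11.3, 12.9 and 2.86 CPM in P16lo libraries 1 to 3 and 4.74, 7.52 and 3.02 CPM in P16hi libraries 1 to 3. P16lo libraries 1 and 2 were highest and P16lo library 3 lowest of the 6, so the groups overlapped. The median log2 fold change was -0.79, beside -0.00013 for all 12490 genes tested, and 44 of 46 members lay below 0 (95.7%), where 50% of all genes did. edgeR called 0 of 46 members and 0 of all genes (percent called 0). At an unadjusted p under 0.05 there were 4 members, Pkmyt1, Cenpa, Ndc80 and Smc2, all lower in P16hi, beside 2.24% of all genes (0.304% lower in P16hi). The groups did not overlap, with P16hi lower, for 7 of 46 members (15.2%) beside 3.48% of all genes: Hmgb2, Smc2, Smc4, Pkmyt1, Mad2l1, Ndc80 and Cenpa. None lay higher in all P16hi libraries, beside 3.37% of all genes.

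The clearest difference was in Pkmyt1, the membrane-bound kinase that inhibits Cdk1. It was at 25.3, 26.0 and 27.9 CPM across P16lo and at 7.43, 8.23 and 4.64 CPM across P16hi F480-high libraries. The groups were far apart and each was narrow, with means of 26.4 ± 1.37 and 6.76 ± 1.88 CPM (SD, n = 3). P16hi against P16lo gave a log2 fold change of -1.96 (SE 0.37, edgeR unadjusted p = 0.00132, adjusted p = 0.999). DESeq2 called it at an adjusted p of 0.00175, 1 of 3 genes it called in F480-high cells (0.024% of genes), whereas its adjusted p ran from 0.651 to 0.99998 under the other settings, all with a negative fold change. The deposited counts carry part counts for Pkmyt1 in 12 of 12 libraries, and 319 of its 3643 exon bases are shared with Paqr4 on the opposite strand. Paqr4, a membrane receptor gene, was at 10.9, 12.5 and 2.10 CPM across P16lo and at 9.69, 4.76 and 18.6 CPM across P16hi libraries. The part of the shared bases in the Pkmyt1 counts was not tested.

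Wee1, the nuclear counterpart of Pkmyt1, was at 10.2, 14.9 and 2.67 CPM across P16lo and at 38.2, 6.47 and 2.66 CPM across P16hi F480-high libraries. P16hi library 1 alone was high, and the log2 fold change was 0.77 (SE 1.08). The kinase they act on, Cdk1, was at 26.7, 27.98 and 0.725 CPM against 13.4, 8.34 and 0.113 CPM. Ccnb1 was at 11.9, 15.6 and 2.40 CPM against 5.08, 10.02 and 1.98 CPM, with P16lo library 3 below P16hi libraries 1 and 2 and above library 3. Foxm1 was at 9.51, 10.9 and 3.05 CPM against 2.35, 3.82 and 0 CPM, and Plk1 at 5.86, 5.58 and 0.610 CPM against 3.07, 4.05 and 0 CPM. For all of these P16lo libraries 1 and 2 were above every P16hi library except for Wee1.

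Of the 5 chromosome structure genes, 3 had groups that did not overlap. Hmgb2 was at 163, 156 and 188 CPM across P16lo and at 62.0, 109 and 123 CPM across P16hi libraries, with a log2 fold change of -0.79 (SE 0.35). Smc2 was at 30.5, 24.6 and 24.6 CPM against 13.9, 18.3 and 11.9 CPM, with a log2 fold change of -0.85 (SE 0.32), and Smc4 at 46.5, 45.8 and 70.0 CPM against 27.4, 37.2 and 43.5 CPM. In each the lowest P16lo library was above the highest P16hi library. Mki67 was at 38.5, 40.9 and 1.03 CPM against 20.6, 34.9 and 10.6 CPM, and Top2a at 47.2, 48.5 and 4.24 CPM against 13.5, 33.4 and 1.19 CPM. P16lo library 3 was the lowest of all for Mki67.

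At the kinetochore, Cenpa was at 80.3, 68.9 and 100 CPM across P16lo and at 53.9, 36.6 and 24.1 CPM across P16hi libraries, with a log2 fold change of -1.12 (SE 0.37). Ndc80 was at 6.11, 9.29 and 12.6 CPM against 1.49, 4.25 and 1.53 CPM, with a log2 fold change of -1.94 (SE 0.69). The checkpoint protein gene Mad2l1 was at 11.5, 11.2 and 25.0 CPM against 6.02, 7.99 and 8.88 CPM. P16lo library 3 was the highest of all for these 3 genes. Bub1b, in contrast, was at 11.7, 13.4 and 1.18 CPM against 4.14, 10.9 and 0 CPM. The passenger complex genes Aurkb (11.6, 13.5 and 3.66 CPM against 4.31, 13.8 and 0 CPM) and Birc5 (25.1, 22.02 and 2.59 CPM against 8.02, 14.3 and 6.33 CPM) also had a low P16lo library 3.

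Spindle and exit genes had overlapping groups. Kif11 was at 7.05, 10.4 and 0.153 CPM across P16lo and at 3.76, 7.06 and 4.01 CPM across P16hi libraries. Cdc20 was at 7.60, 8.14 and 8.62 CPM against 2.65, 6.51 and 7.63 CPM, and Ube2c at 24.1, 22.8 and 0.954 CPM against 8.45, 18.2 and 2.37 CPM. P16lo library 3 was lowest for Kif11 and Ube2c and highest for Cdc20. Kif23, a motor of the central spindle, was at 13.1, 16.4 and 5.65 CPM against 4.14, 9.32 and 4.58 CPM. Anln was at 4.20, 7.64 and 1.72 CPM against 5.16, 2.73 and 7.52 CPM, and it was the only member beside Wee1 with a fold change above 0.

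P16lo library 3 divided the group. It lay under 10% of the lower of P16lo libraries 1 and 2 for 15 members, among them Mki67, Top2a, Cdk1, Bub1, Cenpe, Kif11 and Prc1. It lay at or above the higher of them for 9, namely Hmgb2, Smc4, Pkmyt1, Cdc25b, Mad2l1, Ndc80, Cenpa, Cdc20 and Pttg1. Without it, 36 of 46 members (78.3%) had P16hi below P16lo with no overlap, beside 10.3% of all genes, and the median log2 fold change was -1.17. With P16hi library 3 left out as well, 38 of 46 (82.6%) did so, beside 15.3% of all genes. P16lo library 3 stood out by the members' own values, so these counts are descriptions and not independent of those values. The P16lo libraries left in, 1 and 2, were much closer to each other than other pairs within an F480-high group. Their chi-square per degree of freedom over all genes was 36.5, against 476 to 732 for the other pairs. P16hi library 1 was below both P16lo libraries 1 and 2 for 41 of 46 members, as were 5136 of 12490 genes.

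The deposited table holds the F480-high libraries in a pair of column blocks, whose meaning the labels do not give. In the block of P16lo libraries 1 and 2 and P16hi library 1 the median difference of the members was -1.10 with 43 of 46 below 0. In the block of P16lo library 3 and P16hi libraries 2 and 3 it was 0.47 with 17 below 0. With the block as a term in the fit the median was 0.046, with 22 of 46 below 0, so the lower level of the group did not hold within both blocks. Pkmyt1 was lower in P16hi in each block, by log2 differences of -1.66 and -2.00.

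In F480-high cells 7 of 7 B cell markers had a negative fold change, with summed levels of 451 to 6873 CPM across P16lo and at 133 to 1568 CPM across P16hi libraries. Of the fibroblast markers 10 of 12 had a negative fold change, with sums of 1507, 1530 and 196 CPM in P16lo libraries 1 to 3 and 723, 704 and 275 CPM in P16hi libraries 1 to 3, so that P16lo libraries 1 and 2 were highest and P16lo library 3 lowest, as for the median member level. P16lo library 3 was also lowest for the macrophage markers (2315 CPM), of which 8 of 12 had a positive fold change. Of the monocyte markers 8 of 10 had a positive fold change (2023 to 2160 CPM against 316 to 6756 CPM). So did 7 of 9 dendritic cell markers and, of those tested, 6 of 7 erythroid, 3 of 5 T and NK cell and 4 of 9 neutrophil markers. All 10 tested cardiomyocyte markers (3.66 to 14.1 CPM against 7.25 to 992 CPM) and all 10 endothelial markers (33.4 to 143 against 37.7 to 3800 CPM) had a positive one. The high values were in P16hi library 3, in which 10 members were at 0 counts (Ccnf, Cdc25c, Foxm1, Plk1, Aurkb, Bub1b, Ttk, Kif2c, Nusap1 and Kif20a), which allows up to 0.170 CPM each. Cardiomyocyte genes at 0 were Myh6, Mb, Ryr2 and Pln in P16lo library 3, Ryr2 in P16lo library 2 and P16hi library 1, and Myh6 in P16hi library 2, while no B cell, fibroblast, monocyte or endothelial marker was at 0. The part of these cells was not tested.

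**Figure D3:**
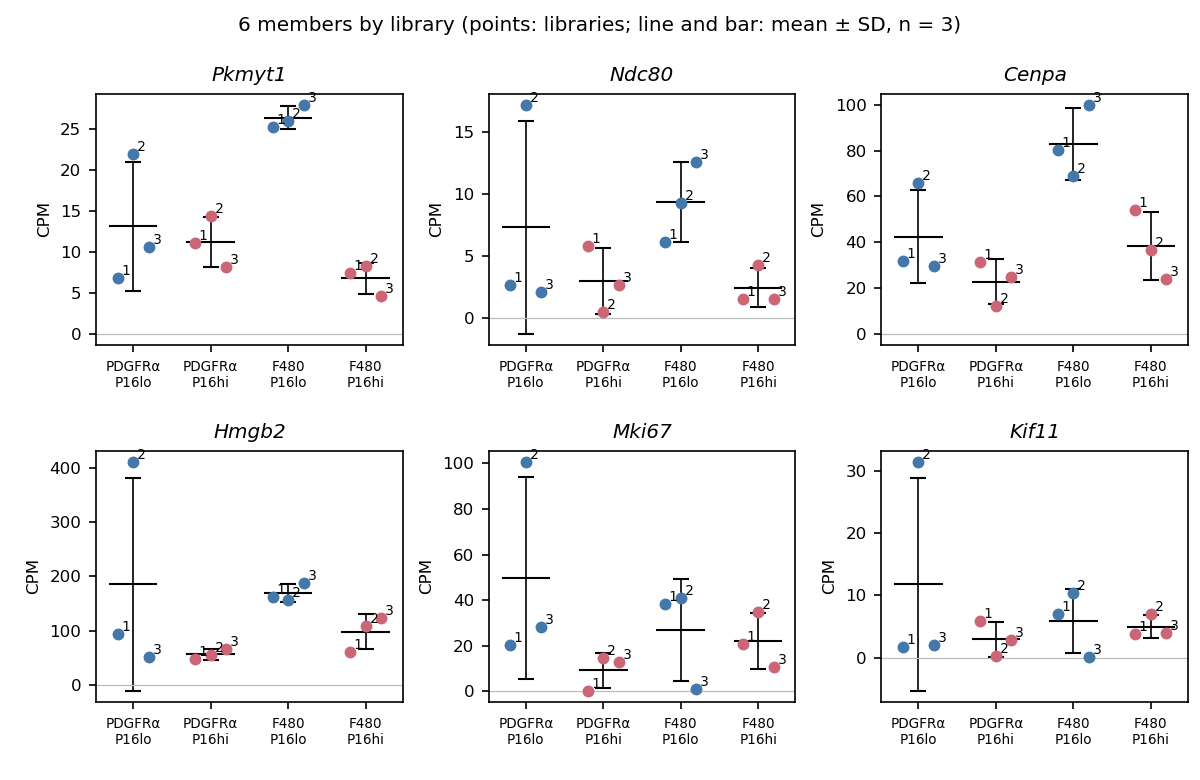
CPM (linear axis) of 6 members in each library (points, numbered within the group), with the mean and SD of each group (n = 3). In F480-high cells the P16hi points of Pkmyt1, Ndc80, Cenpa and Hmgb2 all lie below the P16lo points, whereas P16lo library 3 falls below every P16hi library for Mki67 and Kif11.

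By role, the medians of the log2 fold changes were negative in each population for each of the 11 roles. In PDGFRα-high cells they ran from -2.12 for the 4 checkpoint genes and -2.06 for the 6 spindle genes to -0.90 for the 4 genes that set Cdk1 phosphorylation. In F480-high cells they ran from -1.92 for Foxm1 alone, -0.96 for the 5 cytokinesis genes and -0.95 for the 7 kinetochore genes to -0.54 for the 3 genes of anaphase.

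The other members are given by their log2 fold changes, first in PDGFRα-high and then in F480-high cells. Of the cyclins, Ccna2 had -1.42 and -0.86 and Ccnb2 -1.32 and -0.59. The Cdk1-activating phosphatases Cdc25b and Cdc25c had -1.58 and -2.08 in PDGFRα-high and -1.26 and -0.53 in F480-high cells. Aurka, the centrosomal Aurora kinase, had -2.17 and -0.59, and the passenger proteins Incenp and Cdca8 had -0.51 and -2.52 in PDGFRα-high and -0.16 and -0.64 in F480-high cells. All of these were negative in both populations. The checkpoint kinase genes Bub1 and Ttk had -2.64 and -2.53 in PDGFRα-high and -0.68 and -1.30 in F480-high cells. The kinetochore genes Nuf2, Spc24, Spc25 and Cenpe ran from -1.85 to -1.10 in PDGFRα-high and from -1.17 to -0.21 in F480-high cells. The spindle genes Kif2c, Tpx2 and Hmmr ran from -2.62 to -0.16 and from -1.31 to -0.20. The cytokinesis genes Kif20a, Prc1 and Ect2 ran from -2.83 to -0.41 and from -1.31 to -0.40, and each was negative in both populations.

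The difference between the populations in P16hi against P16lo was tested in a fit of all 12 libraries. edgeR called 0 of 46 members and 0 of 14073 genes (percent called 0). The difference (PDGFRα-high minus F480-high) had a median of -0.71 over the members, beside -0.20 over all genes, with 36 of 46 members below 0 (78.3%) and 59.4% of all genes. The sign of that median turned without PDGFRα-high P16lo library 2, to 0.54, beside -0.16 over all genes (members minus all genes 0.70). With limma on log2(TPM + 1) the member median was 0.062, but the median over all genes was 0.44. Relative to all genes the members thus stayed lower in that fit (members minus all genes -0.38). That fit used deposited TPM, which are flagged below for an F480-high library. Pkmyt1 alone had an unadjusted p under 0.05, beside 2.12% of all genes (1.32% with a negative difference), with a difference of 1.77 on the log2 scale (SE 0.69, unadjusted p = 0.0262, edgeR adjusted p = 0.9999).

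**Figure D4:**
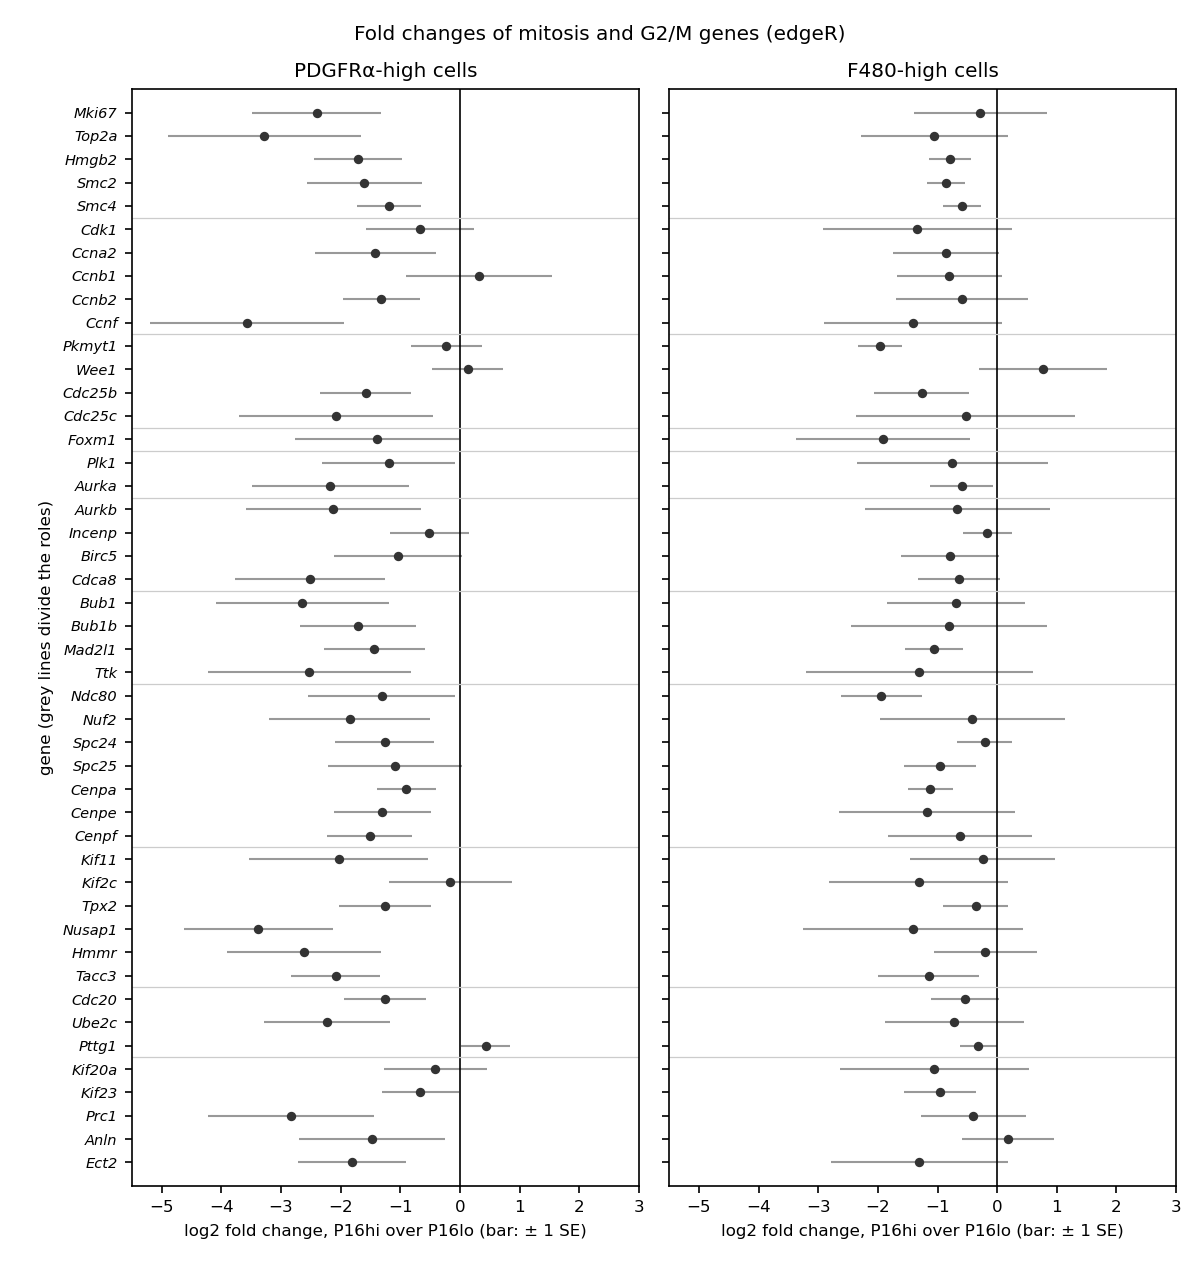
log2 fold change of P16hi against P16lo in PDGFRα-high and F480-high cells for each of the 46 members (points, bars 1 SE, by role). Nearly all points lie below 0, most within 2 SE of it, and Pkmyt1 in F480-high cells lies farthest from 0 relative to its SE, with -1.96 (SE 0.37), beside -0.23 (SE 0.60) in PDGFRα-high cells.

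Genes that work beside the members were read for comparison, with 0 called in any list. Of 65 other mitosis genes, 57 of 63 tested lay below 0 in PDGFRα-high cells (median -1.23) and 58 of 65 in F480-high cells (median -0.81). Cks2, a Cdk1-binding subunit, had a log2 fold change of -1.96 (SE 0.64) in PDGFRα-high cells, and Plk4, the centriole duplication kinase, -1.13 (SE 0.45) in F480-high cells. The 13 subunits of the anaphase promoting complex, which resting cells also express, had medians of -0.020 and -0.075, with 7 and 9 below 0. Among DNA replication genes 42 of 46 lay below 0 in PDGFRα-high cells (median -0.55) and 45 of 47 in F480-high cells (median -0.80), beside 59.6% and 50% of all genes. P16hi lay below P16lo with no overlap for 6 of 46 (13.04%) in PDGFRα-high and 12 of 47 (25.5%) in F480-high cells, beside 6.92% and 3.48% of all genes. The helicase gene Mcm2 had -1.31 (SE 0.36) and Mcm5 -1.21 (SE 0.37) in F480-high cells.

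**Figure D5:**
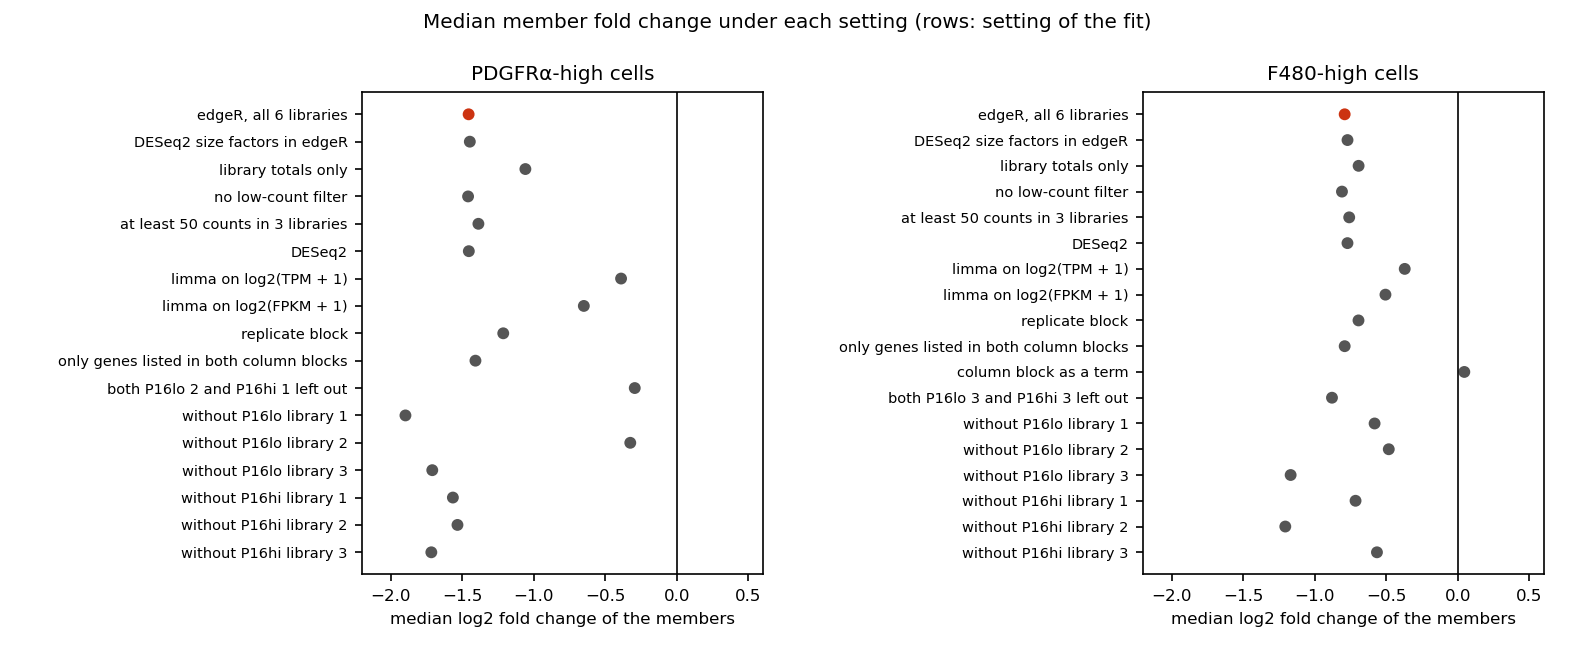
Median log2 fold change of the members (horizontal axis) under each setting of the fit (rows), in each population; red marks the edgeR fit of all 6 libraries. Values range from -1.90 to -0.29 in PDGFRα-high cells, nearest 0 with P16lo library 2 and P16hi library 1 both left out, and from -1.21 to 0.046 in F480-high cells, highest with the column block as a term.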

How the data were processed

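Libraries were made from cDNA, per the labels' protocols, which was fragmented by a transposase and sequenced as DNA nanoballs. The submitters' processing notes name HISAT and the builds GRCm38 and mm10. The counter, and whether it used strand, are steps not given in the sources used here, so overlapping genes carry uncertain counts: 12 members share exon bases with another protein-coding gene, among them Kif20a, Ube2c, Ccna2, Prc1 and Pkmyt1. Part counts were found for 12 members, which are not the same set. Spc24, Cenpf, Hmmr, Birc5, Kif11 and Aurka have part counts without such shared bases.

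Per the file headers, the deposited values are estimated counts, TPM, FPKM and a normalised count, a signal that was not used, in 1 table per population. The estimated counts were rounded to whole numbers. Each table holds a pair of column blocks with their own gene lists, joined by gene identifier, and genes missing from a block were set at 0 there. FPKM served for levels between genes, and TPM and FPKM for alternative tests.

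Genes kept by filterByExpr (minimum count 10) were tested with edgeR 4.0.16 (R 4.3.3), TMM scaling and a robust quasi-likelihood test, P16hi against P16lo in each population and, over all 12 libraries, as an interaction. P-values were adjusted by Benjamini-Hochberg over all genes tested, with a threshold of 0.05. CPM are per 1000000 of the TMM-scaled library size. DESeq2 1.42.0 and limma 3.58.1 on log2(value + 1) were alternatives, as were other scalings, filters, a replicate block, a column block term and each library left out. The scripts were tested on simulated data.

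The 46 members and all gene lists were chosen with earlier results of these data known. Values in every library are given for 19 members picked for their roles and the 8 of smallest p in each population. Of other lists, up to 3 genes of smallest p per population could be named. No pair of libraries of a group agreed within sampling noise (chi-square per degree of freedom 36.5 to 1060). Whether same-numbered libraries belong together could not be told, and the main fits did not pair them. Library totals were 3.16 to 27.9 M, and intervals and limits cover counting error only.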

Additional observations from a re-analysis of the deposited data

Results flagged for a closer look

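In F480-high P16hi library 3, 8 of the 10 members with 0 counts have a deposited TPM above 0, up to 3.5, although the library's counts and FPKM list them at 0. In the other libraries all members at 0 counts have a TPM of 0, where members not listed for a library were set at 0 in both. The TPM of that library do not follow its own FPKM: the ratio of FPKM to TPM lay within 1% of its median for 1.46% of genes, against 100% in each of the other 11 libraries. The signal lies in a column that the main tests do not use, and the counts and FPKM of the library were used as deposited.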

How the results depend on the processing

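In PDGFRα-high cells the 0 genes called by edgeR (859 at an unadjusted p under 0.05) became 39 with library totals only, 23 with no low-count filter, 304 with DESeq2, 263 with limma on log2(TPM + 1), 82 with limma on log2(FPKM + 1), and 0 to 17 with a library left out, 17 without P16hi library 3. None was a member, and all were higher in P16hi except 11 of the 304. In F480-high cells (280 genes at an unadjusted p under 0.05) DESeq2 called 3 genes, of which 1 member, Pkmyt1, and for the difference between populations (299) it called 8 genes. The cause was not tested.

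The member median in PDGFRα-high cells was -0.39 with limma on TPM, -0.29 with P16lo library 2 and P16hi library 1 left out, and -1.90 to -0.33 with 1 library left out. Relative to the median of all genes it was -0.90 with limma on TPM and -0.19 with both libraries left out. It was -0.18 without P16lo library 2 alone, beside -1.28 in the edgeR fit of all 6 libraries. Library totals moved the median of all genes from -0.17 to 0.24, and the members relative to it from -1.28 to -1.30. In F480-high cells the member median was 0.046 with the column block as a term and -1.21 to -0.48 with 1 library left out.

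Single members that changed sign in PDGFRα-high cells did so mainly without P16lo library 2. With each library left out Cdk1 ran from -1.54 to 0.87, Ccnb1 from -1.46 to 2.24, Pkmyt1 from -0.55 to 0.36, Wee1 from -0.14 to 0.51, Plk1 from -1.80 to 1.08, Aurkb from -2.62 to 0.13, Birc5 from -2.38 to 0.64, Ndc80 from -2.18 to 0.31 and Kif11 from -2.93 to 0.60. With P16lo 2 and P16hi 1 both left out Top2a was 0.50, Cdk1 0.0050, Pkmyt1 0.36, Wee1 -0.15, Foxm1 0.31, Plk1 0.47, Aurkb 0.68 and Bub1b 0.086. With limma on TPM Cdk1 was 0.26, Pkmyt1 0.62 and Plk1 0.15, with limma on FPKM Cdk1 was 0.029 and Pkmyt1 0.36, and with library totals Pkmyt1 was 0.15. In F480-high cells with each library left out Mki67 ran from -0.85 to 0.15, Wee1 from -1.03 to 1.29, Kif11 from -0.82 to 0.45 and Anln from -0.21 to 0.78. With the column block as a term Mki67 was 1.69, Top2a 0.089, Cdk1 0.70, Plk1 0.40, Birc5 0.21, Bub1b 0.28, Kif11 1.78 and Ube2c 0.93. With limma on TPM, a fit that used the flagged TPM of P16hi library 3, Mki67 was 0.079 and Ube2c 0.18. With limma on FPKM Mki67 was 0.11 and Kif11 0.066, and with P16lo 3 and P16hi 3 left out Anln was -0.59.

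Deviations of same-numbered libraries correlated at 0.059, 0.030 and 0.239 in PDGFRα-high and at 0.486, -0.331 and 0.136 in F480-high cells. With 3 libraries per group of differing cell content, these values cannot tell whether same-numbered libraries belong together. With the replicate block edgeR called 0 members and the member medians were -1.21 and -0.69, and in F480-high cells Mki67 was 0.56 and Kif11 0.60. The limma fit on FPKM and the fits with 2 libraries left out were chosen after seeing the data. Depth limits low members such as Ttk and Cdc25c, and in PDGFRα-high P16hi library 1 19 members had under 10 counts.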

Other observations

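Inhibitors and regulators of the cell cycle were read in the same fits, with 0 called. Among 8 genes of cyclin-dependent kinase inhibitors, 5 lay above 0 in F480-high cells (median 0.39), where Cdkn1c, the gene of p57, was at 1.61, 2.79 and 0.878 CPM across P16lo and at 2.77, 2.34 and 158 CPM across P16hi libraries. P16hi library 3, which also had high endothelial and cardiomyocyte markers, alone was high, and the log2 fold change was 4.94 (SE 1.81, edgeR adjusted p = 0.999). Cdkn2a had 2.28 (SE 0.95). In PDGFRα-high cells 3 of 7 lay above 0 (median -0.36), with Cdkn1b, the gene of p27, at -0.96 (SE 0.46). Of 19 regulators of cell cycle transcription 16 lay below 0 in PDGFRα-high cells (median -0.60), with the activator E2f2 at -2.68 (SE 0.68, unadjusted p = 0.00513, edgeR adjusted p = 0.408), and 14 in F480-high cells (median -0.37), with Mybl2, the gene of B-Myb, at -1.40 (SE 0.95).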
